A study of Homo sapiens with 6 samples.

Results

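The Ena/VASP proteins, the zyxin-type proteins that bind them and the profilins that supply them with actin were followed. The data are from breast cancer cells in which VASP had been knocked down and from control cells. The set was chosen by gene symbol and holds 10 of the 61155 symbols in the deposited count table: the family members VASP, ENAH and EVL, the ligands ZYX, LPP, TES, FBLIM1 and RAPH1, and the profilins PFN1 and PFN2. The cells were of the breast cancer line MDA-MB-231, an established human line of mesenchymal character, with 3 VASP knockdown libraries and 3 control libraries sequenced. By the submitters' account, cells were harvested 48 hours after transfection and each library was made from 1 ug of total RNA. Titles name an shVASP construct for the knockdown cells and the vector plko for the control cells. The treatment fields instead name a VASP siRNA and a negative control siRNA. The reagent, and with it whether the loss of VASP was transient or lasting, is therefore not settled by the labels. Separate cultures are not mentioned in the labels, so a p-value here speaks of the spread among libraries, which may be technical. The control columns are all named after 1 control sample and could be repeats of it, in which case the control libraries (n = 3 throughout) stand for a single sample.

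Ena/VASP proteins bind the growing ends of actin filaments, hold off capping proteins and add actin that profilin has brought, which speeds filament elongation in lamellipodia, filopodia and focal adhesions. Their N-terminal domain docks on short proline-rich repeats of proteins such as zyxin, LPP and lamellipodin, and so places them at adhesions or at the leading edge. A central proline-rich stretch binds profilin, and the C-terminal part binds actin and joins subunits into tetramers. In breast cancer cells the family is known for its part in invasion and migration.

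The libraries held 28856610 to 30055503 counts, with 26986 to 27646 symbols detected in each. Of 16633 genes tested, 3148 rose and 3039 fell at an edgeR adjusted p under 0.05, which is 37.2% of the genes called in either direction, 18.9% risen and 18.3% fallen. The median absolute log2 fold change was 0.19, so most changes were small. Levels are given as counts scaled to library size by TMM (CPM). The line's own markers were present, with VIM at 1698 CPM in knockdown cells and 1663 CPM in control cells, and AXL at 1756 CPM in knockdown cells and 1890 CPM in control cells. CD44 stood at 579.0 CPM in knockdown cells and 557.9 CPM in control cells. VIM, CD44 and AXL were not called (edgeR adjusted p = 0.69, 0.43 and 0.12). ZEB1, a mesenchymal regulator, rose to 64.8 CPM in knockdown cells, against 46.9 CPM in control cells (edgeR adjusted p = 2.4e-06). Its log2 fold change was 0.47, where the decile of genes of like GC content had a median of 0.15. ESR1 stood at 0.58 CPM in knockdown cells and 0.63 CPM in control cells, PGR and CDH1 had at most 3 counts in any library, and EPCAM, listed with them as low in this line, stood at 5.43 CPM in knockdown cells and 6.42 CPM in control cells.

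VASP mRNA was strongly reduced in every knockdown library. VASP was the one member called with a log2 fold change past 1 in either direction (edgeR adjusted p under 0.05), as were 1.32% of all tested genes. It was likewise the one member of 9 called against a minimum fold of 1.2, as were 5.73% of all tested genes. VASP (ENSG00000125753, GRCh38 chr19:45506579-45526983, plus strand) had 396, 379 and 360 counts in the 3 knockdown libraries, against 4544, 5036 and 4708 in the 3 control libraries. In CPM these were 12.9, 12.8 and 12.3 in knockdown cells and 155.7, 173.7 and 162.7 in control cells. The groups lie far apart and the knockdown libraries differ little among themselves. VASP averaged 12.7 ± 0.355 CPM in knockdown cells and 164.0 ± 9.04 CPM in control cells (SD, n = 3 each), a log2 fold change of -3.69 (SE 0.06, 95% interval -3.82 to -3.57, edgeR adjusted p = 8.3e-24), or 12.9-fold lower. In bulk RNA, fewer cells that express VASP and less VASP mRNA per cell cannot be told apart.

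VASP, LPP and FBLIM1 carry the 6-base word GTCGTC, which an earlier look at these data had set beside genes that fell, and their sites are shown because these members are the 3 that fell. The search covered the sense strand of 1 principal GENCODE 29 transcript per gene on GRCh38, and the reagent's own sequence is not given in the sources used here. Capitals mark the word, and each line gives 30 bases, 5′ to 3′.
VASP: gccaaggatgaaGTCGTCttcttcggtgac
LPP: cgttctcaatgtGTCGTCtgactcaaccag
FBLIM1: gggaggggaggcGTCGTCcagggaacaaag
The VASP site lies in the coding sequence, in a stretch that crosses an exon junction, with the word at chr19:45524576-45524581 on the plus strand. The LPP site is in the 3′ UTR at chr3:188889403-188889432, and the FBLIM1 site is in the 5′ UTR at chr1:15758566-15758595, both on the plus strand. None of the other 7 members, of which ZYX had too few counts to be tested, holds the word in its principal transcript. Of 19656 protein-coding genes, 4.02% hold it in the 3′ UTR, 11.6% in the coding sequence, 2.69% in the 5′ UTR and 17.3% anywhere in the principal transcript. The word was set beside genes that fell in these same data, so its presence in members that fell is no independent finding. A match is a description of the letters, and whether the site plays any part in the lower levels was not tested.

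Neither paralog passed the test. ENAH, which encodes Mena and is known to promote invasion of breast cancer cells, had 103.4, 103.4 and 107.0 CPM in knockdown libraries and 103.0, 98.1 and 105.5 CPM in control libraries. These ranges overlap, and the log2 fold change was 0.03 (SE 0.05, 95% interval -0.07 to 0.13, edgeR adjusted p = 0.62). EVL, the remaining family member, had 17.8, 18.8 and 17.8 CPM in knockdown libraries and 18.3, 16.4 and 19.6 CPM in control libraries. Its groups overlap as well, with a log2 fold change of 0.00 (SE 0.07, 95% interval -0.15 to 0.16, edgeR adjusted p = 0.98). The upper ends of these intervals correspond to 1.096-fold for ENAH and 1.115-fold for EVL. With GC content and length corrected EVL stood at 0.10 (95% interval -0.05 to 0.26, edgeR adjusted p = 0.31), an upper end of 1.196-fold. EVL shares 2.67% of its exon bases with DEGS2 on the other strand, which was not called (log2 fold change -0.35, edgeR adjusted p = 0.096). The sign of the ENAH value is not fixed, since it was -0.03 with GC content and length corrected (edgeR adjusted p = 0.59), and EVL stood at -0.06 without the second control library and at -0.01 without the second knockdown library.

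**Figure D1:**
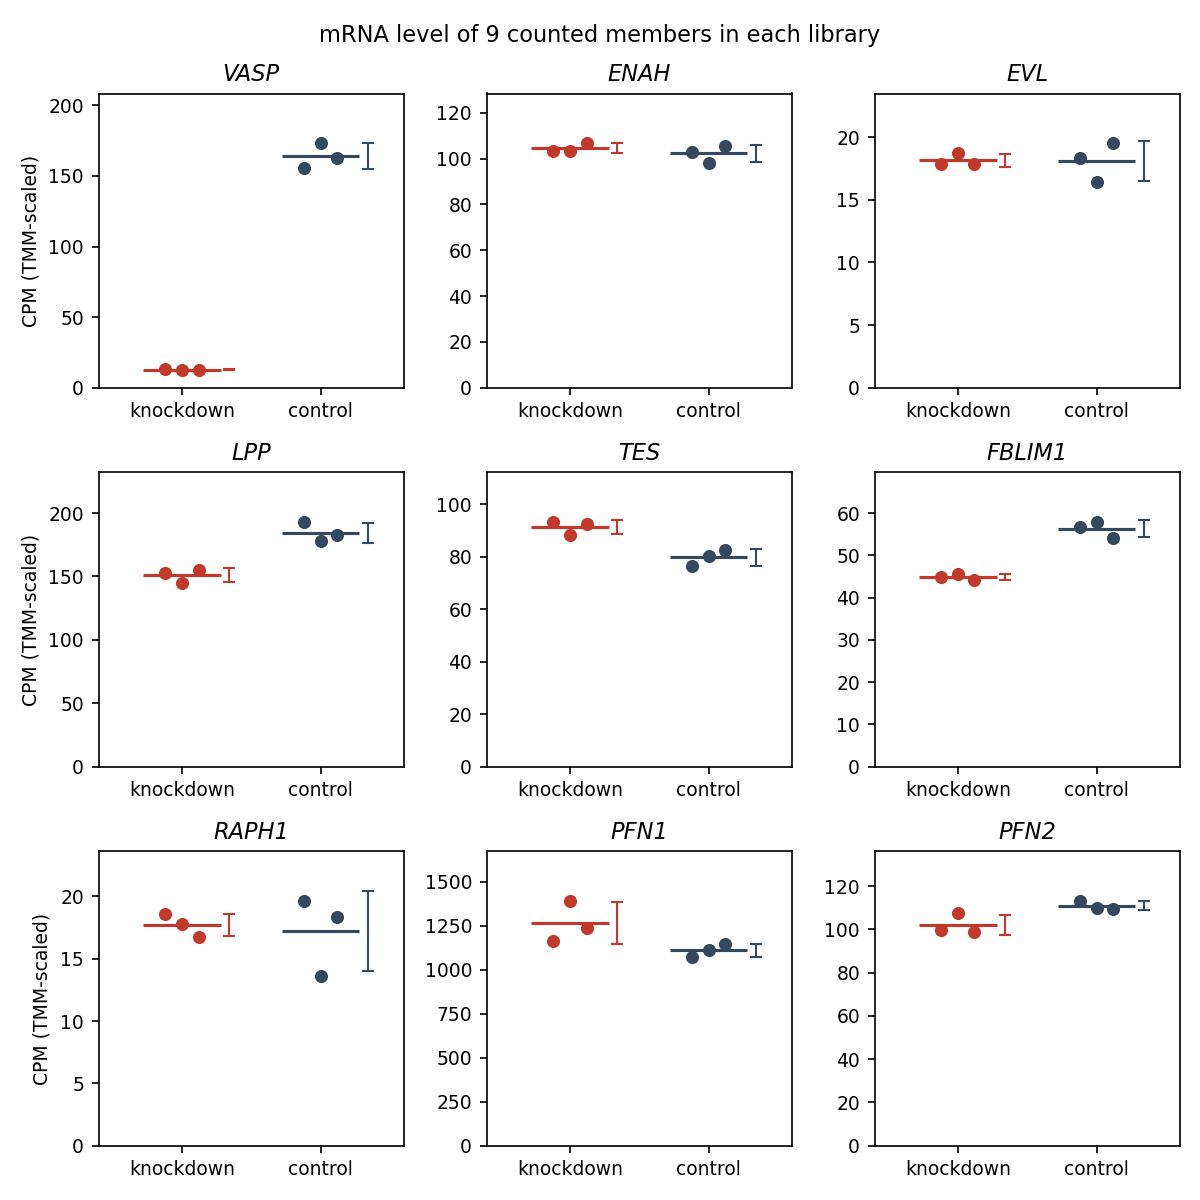
Level of each counted member in every library, in TMM-scaled CPM on a linear axis that starts at 0, with knockdown libraries on the left of each panel and control libraries on the right; horizontal lines are means and brackets are ± 1 SD (n = 3). VASP stands near 12.7 CPM in knockdown cells against 164.0 CPM in control cells, LPP and FBLIM1 are lower and TES and PFN1 higher in all 3 knockdown libraries, and ENAH, EVL and RAPH1 overlap.

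The make-up of the family differed between the groups. Levels were put on a per-length scale (TPM, from the merged exon length of each symbol) so that genes could be compared. VASP made up 29.9%, 29.5% and 28.2% of the summed family mRNA in the 3 knockdown libraries, against 83.7%, 85.8% and 83.8% in the 3 control libraries. The share averaged 29.2% ± 0.861 in knockdown cells and 84.4% ± 1.22 in control cells (SD, n = 3 each), and the exact permutation test gave p = 0.1, the smallest value that 3 libraries against 3 allow. Without division by length the share was 9.35% in knockdown cells and 57.7% in control cells. ENAH was the main family mRNA in knockdown cells at 56.7% ± 1.08, against 12.4% ± 0.868 in control cells. EVL made up 14.1% ± 0.399 in knockdown cells and 3.16% ± 0.358 in control cells. Which paralog leads depends on the length used: with the length of the principal transcript, a choice made after seeing the data, EVL held 40.6% and ENAH 35.1% in knockdown cells, against 10.4% and 8.82% in control cells.

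The family sum was lower in knockdown cells. The summed level of VASP, ENAH and EVL was 36.5, 32.3 and 35.0 TPM in knockdown libraries and 138.5, 160.2 and 149.9 TPM in control libraries. The means were 34.6 ± 2.11 TPM in knockdown cells and 149.6 ± 10.9 TPM in control cells, 4.32-fold lower (exact permutation p = 0.1, the smallest possible). Without division by length the sum was 136.5 CPM in knockdown cells and 281.7 CPM in control cells, 2.06-fold lower. These 2 sums are scaled by library totals and not by TMM. The merged exons span 15044 bases in ENAH and 3538 in VASP. ENAH and EVL together gave 24.5 ± 1.503 TPM in knockdown cells and 23.2 ± 0.922 TPM in control cells.

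**Figure D2:**
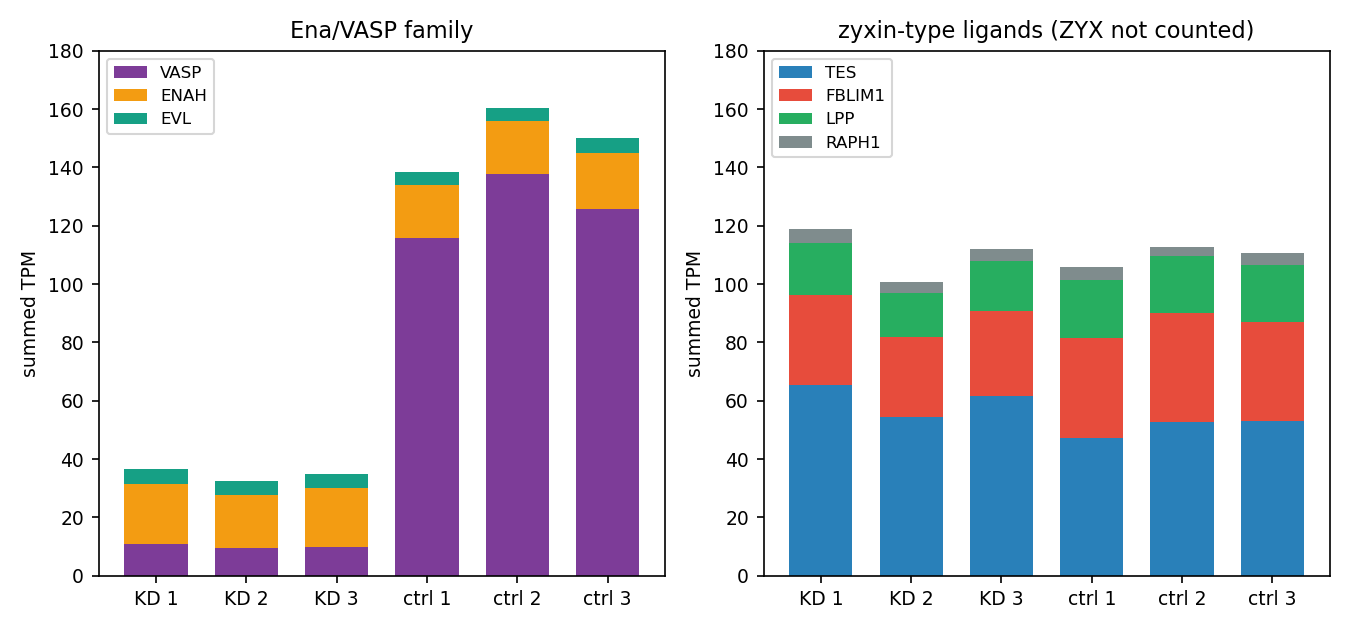
Summed level in TPM per library, with the 3 knockdown libraries (KD) left of the 3 control libraries (ctrl): the Ena/VASP family on the left, the zyxin-type ligands on the right, each bar stacked by gene. The family sum is near 34.6 TPM in knockdown cells and 149.6 TPM in control cells and its VASP part is smaller in knockdown cells, while the ligand sums average 110.6 TPM in knockdown cells and 109.8 TPM in control cells.

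The zyxin-type ligands moved in both directions. LPP and FBLIM1 fell, TES rose, RAPH1 did not pass the test and ZYX could not be judged. Over all 10 members, 5 of the 9 tested were called, 2 risen and 3 fallen, against 37.2% of all genes called; leaving VASP aside, it was 4 of 8. Members whose 2 groups of libraries did not overlap numbered 6 of 9, where 47.6% of all tested genes did not overlap. The median log2 fold change of the 9 was 0.00, against -0.01 over all genes tested. These shares are not far from the background, and nothing is read from them about the set as a whole.

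LPP, a zyxin relative of focal adhesions and cell contacts that binds VASP through proline-rich repeats, had 153.1, 144.6 and 154.8 CPM in knockdown libraries, against 193.3, 177.6 and 182.3 CPM in control libraries. Every knockdown library lies below every control library. The log2 fold change was -0.29 (SE 0.05, 95% interval -0.39 to -0.19, edgeR adjusted p = 5.9e-05), or 1.22-fold lower, a change larger in size than that of 70.1% of tested genes. LPP (chr3:188153284-188890671, plus strand) has a principal transcript of which 88.6% is 3′ UTR. An antisense transcript, LPP-AS2, shares 230 of its exon bases and had 60, 55 and 62 counts in knockdown libraries against 77, 94 and 80 in control libraries (log2 fold change -0.54, edgeR adjusted p = 0.0074). Its counts are small beside those of LPP, which were 4275 to 4696 in knockdown libraries and 5150 to 5641 in control libraries.

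FBLIM1 encodes migfilin, a LIM protein that links filamin and kindlin at adhesions and binds VASP. It had 44.9, 45.5 and 44.2 CPM in knockdown libraries and 56.9, 58.0 and 54.1 CPM in control libraries. The groups are apart, and the knockdown libraries vary little. The log2 fold change was -0.33 (SE 0.05, 95% interval -0.44 to -0.22, edgeR adjusted p = 3.7e-05), 1.26-fold lower and larger than that of 75.5% of tested genes. FBLIM1 (chr1:15756607-15786594, plus strand) shares no exon base with another symbol. It is the most GC-rich of the counted members at 60.6%, and with GC content and length corrected its log2 fold change was -0.17 (edgeR adjusted p = 0.0088).

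TES encodes testin, a LIM protein that is unusual in binding Mena through LIM domains, where it competes with proline-rich ligands. TES had 93.4, 88.1 and 92.4 CPM in knockdown libraries, against 76.2, 80.2 and 82.7 CPM in control libraries. All 3 knockdown libraries lie above the 3 control libraries. The log2 fold change was 0.20 (SE 0.05, 95% interval 0.09 to 0.30, edgeR adjusted p = 0.0032), 1.15-fold higher, and 51.9% of tested genes changed less. The locus is chr7:116210506-116258783 on the plus strand, and 5.37% of its exon bases are shared with AC073130.3, which had at most 10 counts in a library.

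RAPH1, which encodes lamellipodin, the ligand that brings Ena/VASP proteins to the leading edge, had 18.6, 17.8 and 16.8 CPM in knockdown libraries and 19.7, 13.6 and 18.4 CPM in control libraries. The second control library is low and the groups overlap. The log2 fold change was 0.04 (SE 0.11, 95% interval -0.19 to 0.27, edgeR adjusted p = 0.80), and it was -0.10 without that library. RAPH1 (chr2:203394345-203535335, minus strand) shares 8870 of its exon bases, or 76.3%, with ABI2 on the other strand. Fragments that touch both were not counted at the default settings of the counter, so the level of RAPH1 is understated and rests on the rest of its exons. ABI2 had 8031, 7399 and 7464 counts in knockdown libraries and 7224, 6823 and 6877 in control libraries (log2 fold change 0.09, edgeR adjusted p = 0.14).

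ZYX, which encodes zyxin, the founding member of these ligands and a marker of mature focal adhesions, was listed at 0 counts in all 3 knockdown libraries and at 2, 0 and 0 counts in the control libraries. It was not tested. The table places its exons at chr7:143381295-143391111 and again on a patch sequence, and of the 23 symbols on that patch 21 had 3 counts or fewer over all 6 libraries. Among protein-coding symbols placed on both a chromosome and a patch or alternate sequence, 66.8% were that low, against 20.7% of those on chromosomes only. A fragment with several alignments is not counted by default, and the sources used here do not say whether reads were aligned to patches. The zeros are therefore no measure of zyxin mRNA. The summed ligand values in TPM therefore leave zyxin out.

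The ratio of ligand to family mRNA, with ZYX uncounted, was 3.26, 3.12 and 3.20 in knockdown libraries and 0.764, 0.704 and 0.739 in control libraries. It averaged 3.19 ± 0.0691 in knockdown cells and 0.736 ± 0.0301 in control cells (SD, n = 3 each; exact permutation p = 0.1, the smallest possible). The family sum includes VASP, so this ratio, the VASP share and the sum are not separate from the fall of VASP. The ligand sum itself was 110.6 ± 9.10 TPM in knockdown cells and 109.8 ± 3.57 TPM in control cells, with overlapping library values. Without division by length that sum was 307.1 CPM in knockdown cells and 334.3 CPM in control cells, scaled by library totals. On that scale every knockdown library lay below every control library. Without division by length the ratio was 2.25 in knockdown cells and 1.19 in control cells. In TPM, TES gave 60.5 of the ligand sum in knockdown cells and 50.9 in control cells, and RAPH1 4.30 and 4.02. FBLIM1 gave 29.1 in knockdown cells and 35.3 in control cells, and LPP 16.7 and 19.7. TES competes with proline-rich ligands, so the ratio does not count docking sites per family mRNA.

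PFN1 rose slightly and PFN2 did not pass the test. Profilins bind actin monomers and proline-rich stretches, and PFN1 is the ubiquitous form that feeds Ena/VASP-driven elongation. PFN1 (chr17:4945652-4949061, minus strand) had 1161, 1392 and 1236 CPM in knockdown libraries, against 1073, 1110 and 1145 CPM in control libraries. The groups do not overlap, but the lowest knockdown library and the highest control library are close and the second knockdown library is well above the others. The log2 fold change was 0.19 (SE 0.06, 95% interval 0.06 to 0.31, edgeR adjusted p = 0.016), 1.14-fold higher. The call depends on single libraries: the edgeR adjusted p was 0.066 without the first control library, 0.068 without the second and 0.11 without the second knockdown library, where the log2 fold change was 0.12. PFN1 shares 5.59% of its exon bases with ENO3, and its 10 pseudogenes in the table summed to 161, 213 and 191 counts in knockdown libraries and 174, 176 and 178 in control libraries, so part of its fragments may be split or lost.

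PFN2, the profilin enriched in neurons that also occurs in this line, had 99.8, 107.4 and 99.1 CPM in knockdown libraries and 113.4, 109.9 and 109.5 CPM in control libraries. The knockdown libraries are all lower, the second only narrowly. The log2 fold change was -0.12 (SE 0.05, 95% interval -0.22 to -0.02, edgeR adjusted p = 0.055). It passed the threshold with GC content and length corrected, at -0.14 (edgeR adjusted p = 0.02), with a stricter filter on low counts (0.04) and without the second knockdown library (0.043). PFN2 lies at chr3:149964904-150050788 on the minus strand. Per length, PFN1 made up 95.6%, 96.0% and 95.9% of the pair in knockdown libraries and 94.6%, 94.96% and 95.1% in control libraries (exact permutation p = 0.1, the smallest possible), a difference of 0.928 percentage points.

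Ranked per length of merged exons, PFN1 led in both groups, at 1787 TPM in knockdown cells and 1521 TPM in control cells. VASP stood seventh of the 10 members in knockdown cells at 10.1 TPM and second in control cells at 126.4 TPM. In knockdown cells PFN2 (77.6 TPM), TES (60.5), FBLIM1 (29.1), ENAH (19.6) and LPP (16.7) stood between PFN1 and VASP. In control cells these 5 followed VASP, at 81.4 TPM for PFN2, 50.9 for TES, 35.3 for FBLIM1, 19.7 for LPP and 18.5 for ENAH. ENAH and LPP thus stood in opposite order in the groups, and their library values did not overlap in either group, at 18.1 to 20.5 TPM for ENAH and 14.9 to 17.9 TPM for LPP in knockdown cells and 18.04 to 19.2 TPM for ENAH and 19.5 to 19.9 TPM for LPP in control cells. On the same scale EVL and RAPH1 came last of the counted members and their library values overlapped in both groups, at 4.88 and 4.30 TPM in knockdown cells and 4.70 and 4.02 TPM in control cells. These orders depend on the length: per length of the principal transcript, VASP stood at rank 8 in knockdown cells (15.5 TPM) and again second in control cells (194.0 TPM). EVL then had 25.9 TPM in knockdown cells and 24.9 TPM in control cells, above ENAH in both groups, and LPP (23.3 TPM in knockdown cells, 27.4 TPM in control cells) was also above ENAH (22.4 TPM in knockdown cells, 21.1 TPM in control cells), with overlapping libraries in knockdown cells. The level of RAPH1 is understated on either scale by the exons it shares with ABI2. There were 177.7 PFN1 mRNAs per VASP mRNA by TPM in knockdown cells and 12.1 in control cells.

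LPP, TES and FBLIM1 each hold a CArG box in a promoter, the site known to bind serum response factor and long studied at actin and adhesion genes. The window ran from 250 bases before to 50 after a RefSeq gene start (GRCh38.p14), and PFN2 has no entry there. The 3 sites are printed because these are the called ligands, and capitals mark the box, which reads as the same pattern on both strands.
LPP: gcctgcttctCCATATTTGGaaatgtttac
TES: acacaagaCCAAATTAGGaatggttgcc
FBLIM1: ccgagcctcaCCTTTTATGGtaaagcggcg
They lie at chr3:188212519-188212548, chr7:116222703-116222730 and chr1:15758689-15758718, all on the plus strand. Relative to the RefSeq start of their own promoter, the boxes begin at positions -183 in LPP, -242 in TES and -96 in FBLIM1. All 3 lie inside the loci given above, not before the first base of the locus. Whether these starts are used in the cells was not tested. LPP has 7 promoters in the table, TES 2 and FBLIM1 3, and a single one of each holds the box. In FBLIM1 the GTCGTC site printed above lies upstream of the box and of this RefSeq start. A transcript from that start would lack the site, which was placed in the 5′ UTR by the principal transcript alone. Of the 9 members with a promoter entry 3 held a box in at least 1 promoter, against 1.6% of 27305 genes. Counted by promoter, 1.29% of 35116 held a box. A gene with more promoters, such as LPP with 7, has more places for a box, so the comparison by gene is not like for like. VASP and PFN1, which were also called, held none. ACTG1, among the other pathway genes, also holds a box, while ACTB, LIMD1, SEMA6A and PFN3 have no promoter entry and were not searched. LPP, FBLIM1 and ACTG1 fell and TES rose. A match says nothing of binding in these cells, and a part of the box in these changes was not tested.

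Outside the 10 members, 29 of 34 listed pathway genes were tested, of which 5 rose and 9 fell, 14 called against 37.2% of all genes. With GC content and length corrected 7 of the 29 were called, against 29.0% of all genes. When each library was left out in turn, 8 of the 14 were called every time and 6 were not.

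Among the other zyxin-family LIM proteins 3 of 4 fell, against 18.3% of all tested genes; with GC content and length corrected 1 of the 4, AJUBA, was called, against 29.0%. AJUBA, an adaptor of cell contacts and an inhibitor of LATS kinases, had 243.5, 226.0 and 231.5 CPM in knockdown libraries and 259.8, 271.4 and 276.4 CPM in control libraries (log2 fold change -0.20, SE 0.05, edgeR adjusted p = 0.0018). LIMD1 fell by 0.17 on the log2 scale (edgeR adjusted p = 0.014) and WTIP by 0.23 (edgeR adjusted p = 0.018). With GC content and length corrected, the edgeR adjusted p was 0.059 for LIMD1 and 0.21 for WTIP, whose groups overlap. LIMD1 was not called without the first control library or the third knockdown library (edgeR adjusted p = 0.051 and 0.086), nor WTIP without the second of either group (0.11 for the control library and 0.16 for the knockdown library). TRIP6 had a log2 fold change of -0.12 (edgeR adjusted p = 0.12).

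Of 12 other Ena/VASP ligands 11 were tested, of which 1 rose and 1 fell, against 18.9% risen and 18.3% fallen of all tested genes. The other 9 were not called. With GC content and length corrected 2 of the 11 were called, against 29.0% of all genes. SPTAN1 (log2 fold change 0.05, edgeR adjusted p = 0.47) was 1 of these 2, at a corrected 0.13 (edgeR adjusted p = 0.033). VCL, the vinculin gene, had a log2 fold change of -0.09 (95% interval -0.19 to 0.01, edgeR adjusted p = 0.13), and PALLD, the palladin gene, -0.10 (95% interval -0.20 to 0.00, edgeR adjusted p = 0.11). ABI1, a subunit of the WAVE complex, rose by a log2 fold change of 0.14 (edgeR adjusted p = 0.024), but it stood at 0.01 after the GC and length correction (edgeR adjusted p = 0.89) and was called in 2 of 6 fits with a library left out, with an edgeR adjusted p of 0.051 to 0.064 without the third control library or any 1 knockdown library. ROBO1, a guidance receptor whose Drosophila counterpart binds Ena, fell by 0.21 on the log2 scale (edgeR adjusted p = 0.014), and by a like amount after the correction, yet was called in 3 of those 6 fits, with an edgeR adjusted p of 0.076 without the first control library, 0.069 without the second knockdown library and 0.058 without the third. FYB1, a haematopoietic ligand, had 2 counts or fewer in each library and was not tested.

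Of the kinases that phosphorylate VASP 6 were tested, of which 2 rose and 2 fell, against 18.9% risen and 18.3% fallen of all tested genes. With GC content and length corrected 2 of the 6 were called, against 29.0%. PRKACB, a catalytic subunit of cAMP-dependent kinase, had 26.1, 23.6 and 24.4 CPM in knockdown libraries and 34.8, 32.5 and 31.2 CPM in control libraries (log2 fold change -0.41, SE 0.06, edgeR adjusted p = 2.4e-05). It was also lower after the GC and length correction, at -0.55. ABL1, a tyrosine kinase, fell by 0.28 on the log2 scale (edgeR adjusted p = 5.8e-05), or by 0.17 after the correction. Both catalytic subunits of AMP-activated kinase rose, PRKAA1 by a log2 fold change of 0.23 (edgeR adjusted p = 0.00042) and PRKAA2 by 0.26 (edgeR adjusted p = 0.0011). After the correction these were 0.11 and 0.13, with edgeR adjusted p-values of 0.054 and 0.09. PRKG1 and PRKG2, the cGMP-dependent kinases, were low and not called, PRKD1 was at 0, and PRKACA, which like ZYX is also placed on a patch, was listed at 2 counts in 1 knockdown library and 0 elsewhere.

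Among actins and proteins that bind actin monomers, 2 of 8 rose and 3 fell, against 18.9% risen and 18.3% fallen of all tested genes. With GC content and length corrected 2 of the 8 were called, against 29.0%. TWF1, the twinfilin that caps filament ends and holds ADP-actin, had 95.1, 95.7 and 95.9 CPM in knockdown libraries and 72.8, 68.9 and 73.3 CPM in control libraries. The knockdown libraries lie within 1 CPM of each other and well above the control libraries. Its log2 fold change was 0.42 (SE 0.05, edgeR adjusted p = 5.5e-07), a change larger than that of 84.4% of tested genes, and 0.29 after the GC and length correction. TWF2, its paralog, fell, with a log2 fold change of -0.23 (edgeR adjusted p = 0.0032), but not after the correction (log2 fold change -0.00, edgeR adjusted p = 0.97). CAP1, which recycles actin monomers with cofilin, rose by a log2 fold change of 0.20 (edgeR adjusted p = 0.0017), and by 0.23 after the correction.

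ACTB averaged 4527 ± 54.3 CPM in knockdown cells and 5210 ± 341.8 CPM in control cells, and ACTG1 averaged 4094 ± 117.5 CPM in knockdown cells and 4688 ± 61.9 CPM in control cells (SD, n = 3 each). Both fell by 0.20 on the log2 scale (edgeR adjusted p = 0.012 for ACTB and 0.01 for ACTG1). The calls are uncertain, since after the GC and length correction the values were -0.06 for ACTB (edgeR adjusted p = 0.45) and -0.08 for ACTG1 (edgeR adjusted p = 0.28). The actin genes also have near-identical copies, whose effect on these counts was not measured. ACTB was not called without the second control library (0.093), nor ACTG1 without the third knockdown library (0.068). TMSB4X and TMSB10, the thymosins that sequester monomers, were not called. PFN3 had no count, and PFN4 had 9, 11 and 14 counts in knockdown libraries and 4, 5 and 8 in control libraries, too few to be tested.

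**Figure D3:**
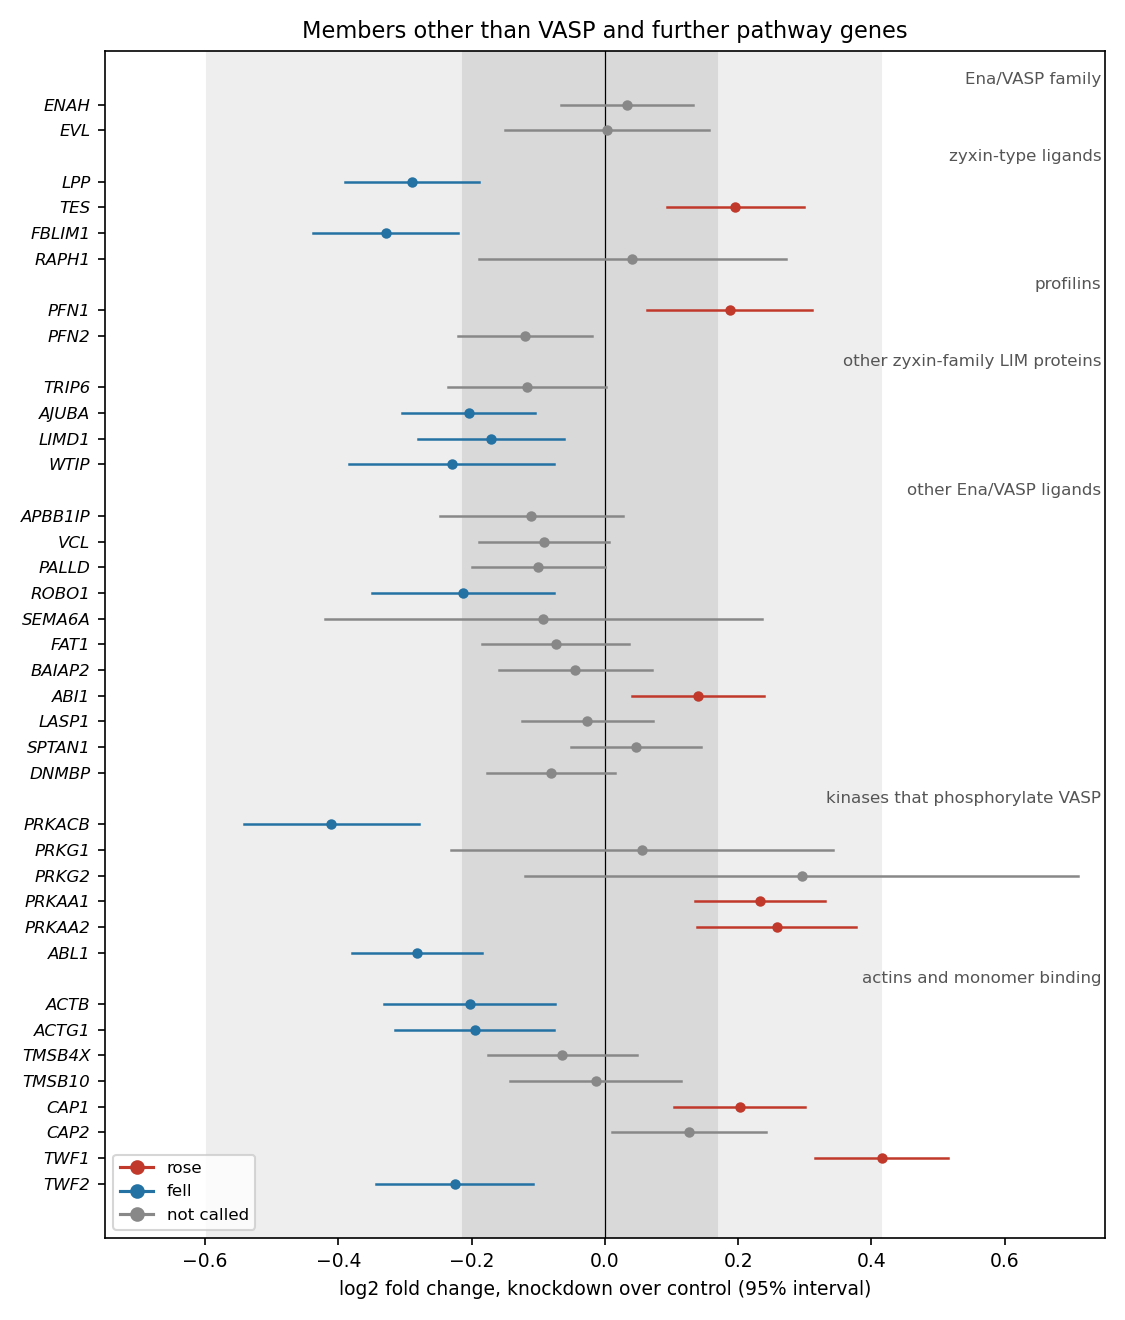
Log2 fold change of knockdown over control with its 95% interval for the tested members other than VASP and for further pathway genes, coloured by call (edgeR adjusted p under 0.05). The darker band holds the middle 50% of all tested genes (-0.21 to 0.17) and the lighter band the middle 90% (-0.60 to 0.41). TWF1 stands at the edge of the lighter band, LPP and FBLIM1 lie left of the darker one, and TES and PFN1 lie just right of it.

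Fold changes over the whole table followed the GC content of the transcripts. The median log2 fold change was 0.18 in the decile of lowest GC content (up to 39.6%) and -0.24 in the highest decile (from 61.3%), with a steady decline between. Set against their own deciles, LPP lay against this trend, at -0.29 where the decile's median was 0.15, and PFN1 did too, at 0.19 where the median was -0.14. Both were further from 0 after the correction, LPP at -0.36 (edgeR adjusted p = 2.7e-06) and PFN1 at 0.32 (edgeR adjusted p = 0.00036). TES and FBLIM1 lay on the side of the trend, and the correction brought TES to 0.13 (edgeR adjusted p = 0.044). VASP stood at -3.54 after it (edgeR adjusted p = 2e-21). The source of the trend with GC content was not tested.

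**Figure D4:**
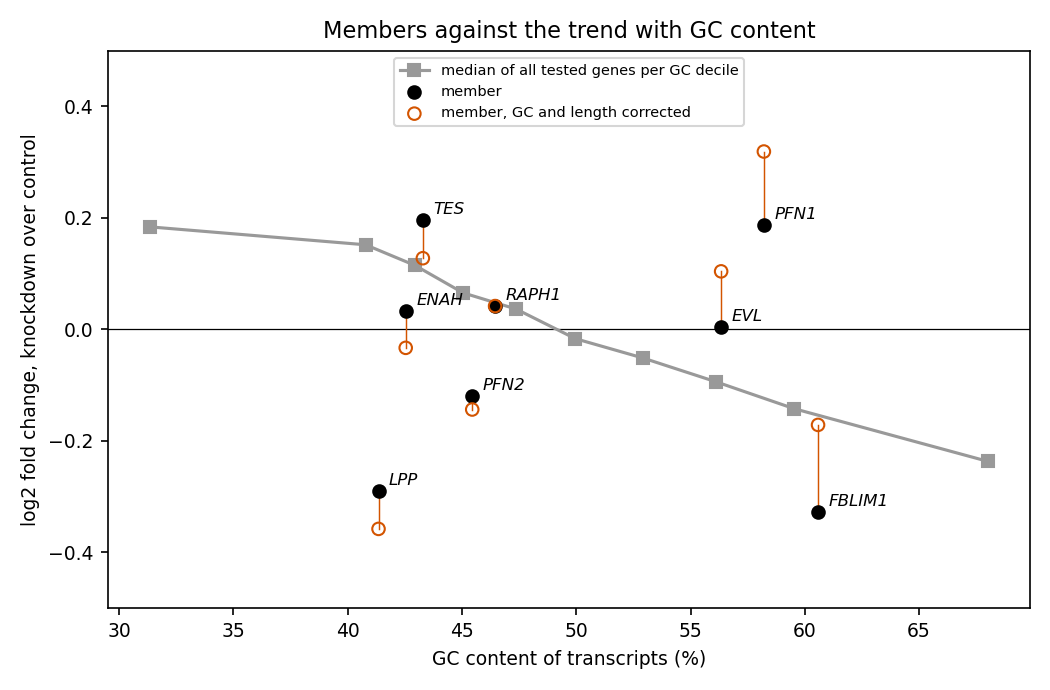
Log2 fold change of knockdown over control against the GC content of each gene's transcripts for members other than VASP (filled), with the corrected value (open) and the median of all tested genes in each GC decile (grey squares). LPP lies far below the grey line and PFN1 far above it, while RAPH1 lies on it.

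**Figure D5:**
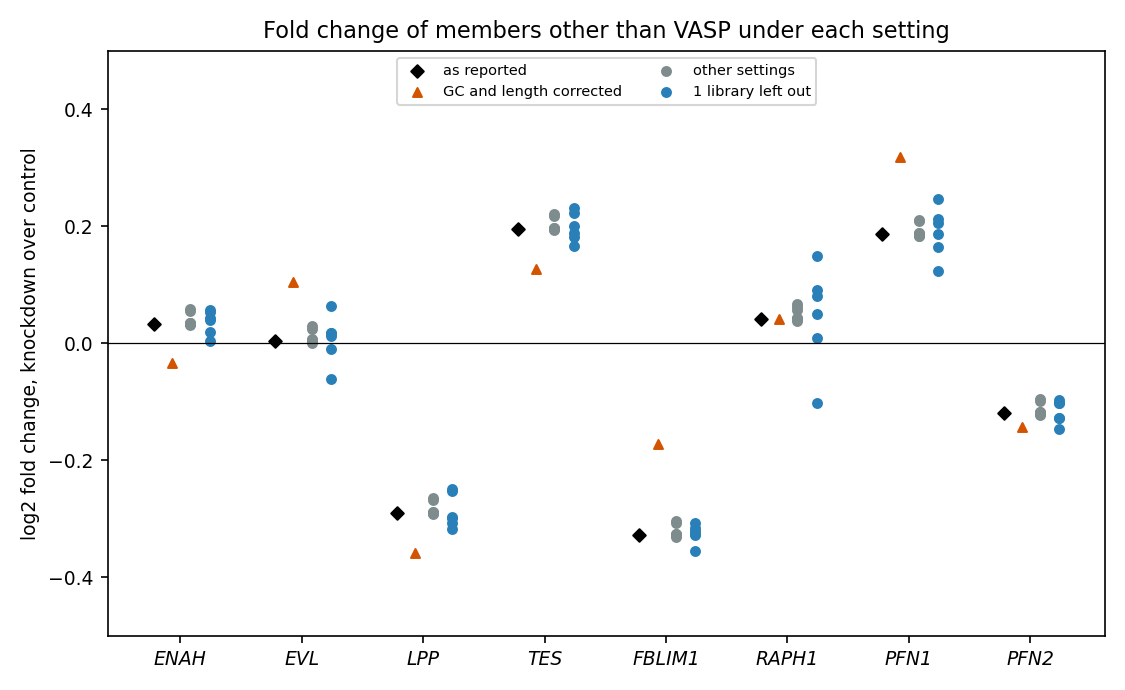
Log2 fold change of each member other than VASP as reported (black), after GC and length correction (orange), under the other scalings, filters and tests (grey) and with each library left out (blue). LPP and FBLIM1 stay below 0 and TES and PFN1 above 0 under every setting shown, while ENAH, EVL and RAPH1 fall on both sides of 0.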

How the data were processed

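Paired-end RNA-seq of 3 VASP knockdown and 3 control libraries was analysed. The authors deposited fragment counts per gene symbol, as whole numbers, in 1 table, made per the file headers with featureCounts 1.6.4 over exons of GENCODE 32 including patches, with no option shown for strand, multi-mapping or overlap. Per the submitters' processing notes, Trim Galore 0.6.4, STAR 2.7.1a and build hg38 were used. Names of the control columns all build on 1 control title, so control libraries are numbered in table order as names only and may be repeats of 1 sample.

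Genes passing filterByExpr (16633) were scaled by TMM, and the deposited counts were tested in edgeR 4.0.16 (quasi-likelihood, two-sided, R 4.3.3) on group alone. Benjamini-Hochberg adjustment ran over every tested gene, and genes under 0.05 were called. "Rose" and "fell" are used of genes past it. TPM used the merged exon length from the file headers and is not TMM-scaled. Sums and shares were compared by two-sided exact permutation tests over libraries in scipy 1.17.1. The biological coefficient of variation was 4.81%. The floor of 3 counts lies at 0.0998 to 0.104 CPM per library, and floors cover counting error only.

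GC content, transcripts and words came from GENCODE 29 by symbol (98.4% of tested genes had a GC value), and promoters came from RefSeq. The GC and length correction removed, per library, the trend of gene deviations in log2 CPM with both (natural splines, 5 degrees of freedom). Scripts were tested on simulated data. Alternatives were DESeq2 1.42.0, its size factors, library totals alone, limma-voom (limma 3.58.1), 2 other filters, glmTreat against a fold of 1.2, that correction and each library left out. The members and lists were chosen with earlier results of these data known. All members are named; of each other list, at most 4 called genes with the smallest p, plus any needed to say how many were not tested. ACTB, called but beyond that limit, and the pathway genes named as not called were added after their values were seen.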

Additional observations from a re-analysis of the deposited data

How the results depend on the processing

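VASP, LPP, TES and FBLIM1 kept their direction and their side of the threshold under DESeq2, limma-voom, 2 other scalings, 2 other filters, the GC and length correction and with each library left out. Against a minimum fold of 1.2 (glmTreat) 953 genes were called, 5.73% of those tested; of the members 1, VASP, and of the other pathway genes 1, TWF1. LPP (-0.2899), TES (0.1957), FBLIM1 (-0.3286) and PFN1 (0.1873) then lost the call. After the GC and length correction 7 other pathway genes were called, ENAH turned to -0.0333 and PFN2 was called at -0.1440. PFN2 was also called at -0.1232 with a minimum of 1 CPM in 3 libraries.

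With 1 library left out, log2 fold changes ran from 0.1229 to 0.2465 for PFN1, -0.0614 to 0.0636 for EVL, -0.1026 to 0.1494 for RAPH1, -0.147 to -0.0967 for PFN2, -0.3169 to -0.2495 for LPP, -0.3557 to -0.3073 for FBLIM1, 0.166 to 0.2317 for TES, 0.0042 to 0.0572 for ENAH and -3.729 to -3.652 for VASP. EVL was below 0 without the second control library and without the second knockdown library. Genes called ran from 4481 to 6399, members from 4 to 5 and other pathway genes from 10 to 15.

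Some genes that were not called turned in sign. With GC and length correction these were TRIP6 at 0.1156, BAIAP2 at 0.1276, LASP1 at 0.0861, PRKG1 at -0.0441 and TMSB10 at 0.1013. TMSB10 was also at 0.0090 with library totals alone and at 0.0074 without a filter. With 1 library left out, values ran from -0.0898 to 0.05 for TMSB10, -0.1514 to 0.0141 for SEMA6A and -0.0388 to 0.1205 for PRKG1. No paired analysis was possible because the number that ends each control column cannot be matched to a control sample. All scalings left the median of all genes within 0.1 of 0 on the log2 scale. FYB1, PRKD1, PFN3 and PFN4 had too few counts to be tested at this depth. ZYX and PRKACA, whose exons also lie on patches, were untested for a low count that does not measure their mRNA.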
